A study of Mus musculus with 6 samples.

Results

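The cytosolic ribosomal proteins are the protein parts of the ribosomes that translate nuclear genes, and their mRNAs were measured in day 3 in vitro germinal center B cells (iGCBs) with and without Eif3e. Their genes were taken by name: rows of the gene count table whose symbol is Rpl or Rps followed by a digit, or Rplp0, Rplp1, Rplp2 or Rpsa, leaving out the Rps6k kinases, Rps19bp1 and names that carry -ps for pseudogene. The rule found 88 genes of the 24499 rows, and no measured value entered it. Earlier results of these data were known when the members were chosen. By name, 31 genes encode core proteins of the small (40S) subunit, 46 encode core proteins of the large (60S) subunit, and 11 are paralogs or recent copies.

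RNA-seq libraries of poly(A) RNA came from 3 cKO mice (Eif3e fl/fl Cγ1Cre Rosa26-YFP LSL, on a C57BL/6J background) and 3 control mice, whose labels give the genotype only as control. For spleen and lymph node analyses, the paper gives its control genotype as Cγ1Cre Rosa26-YFP LSL. The Cγ1Cre allele switches on with transcription through the immunoglobulin γ1 constant gene, so deletion begins in activated B cells, and YFP marks cells in which Cre has acted. In both groups, naïve splenic B cells were grown for 3 days with IL-4 (1 ng/ml) on 40LB feeders, a 3T3 fibroblast line expressing CD40L and BAFF and irradiated at 120 Gy, and YFP+ cells were sorted. Totals were 39079582 to 45504570 counts per library, so for most of these genes counting error is small beside the spread between mice.

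A ribosome holds 1 copy of nearly every core protein, except for the P stalk proteins, so cells make these proteins in step. Their mRNAs begin with a run of pyrimidines (the 5′ terminal oligopyrimidine or TOP motif), which places their translation under mTOR and the RNA-binding protein LARP1. Activated B cells build many ribosomes as they grow and divide, and eIF3, of which eIF3e is a subunit, binds the 40S subunit when translation starts.

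The sequences around the annotated start are given for members described next, to show which of them hold the TOP-like letters searched. Each stretch is 30 bases from 15 before to 15 after a start site in RefSeq (GRCm38.p6, the assembly also named mm10), written 5′ to 3′. The capitals mark the TOP-like letters CTTTTC, or CTTTCC instead, or the run CTCTTT, each on the coding strand, or the letters CCGGAAG (the core letters of a GABP site) on either strand. The stretches of Rps28, Rplp2, Rps25, Rpl11 and Rpl22l1 match none of the TOP-like letters exactly. Those of Rplp2 and Rpl22l1 hold other pyrimidine runs near the start, and that of Rps25 opens with such a run before the start. The first 6 genes had the largest called rises among core members, with Rps21 level with Rps25 at a log2 fold change of 0.37. Rpl11 was near 0, Rpl22l1 fell most among well-measured members, and Rps27 and Rps27rt are a gene and its copy with the same coding sequence.
Rpl12 (chr2:32961697-32961726, plus strand): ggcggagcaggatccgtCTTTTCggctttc
Rps28 (chr17:33824548-33824577, minus strand): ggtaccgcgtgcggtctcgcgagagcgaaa
Rps12 (chr10:23787195-23787224, minus strand): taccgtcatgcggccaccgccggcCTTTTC
Rplp2 (chr7:141447636-141447665, plus strand): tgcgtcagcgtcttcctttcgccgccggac
Rpl35a (chr16:33056467-33056496, plus strand): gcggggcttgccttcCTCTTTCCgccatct
Rps25 (chr9:44407699-44407728, plus strand): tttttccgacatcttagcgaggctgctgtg
Rpl11 (chr4:136053379-136053408, minus strand): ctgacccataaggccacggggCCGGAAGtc
Rpl22l1 (chr3:28805493-28805522, plus strand): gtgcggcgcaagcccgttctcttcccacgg
Rps27 (chr3:90213634-90213663, minus strand): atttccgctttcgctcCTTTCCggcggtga
Rps27rt (chr9:114982725-114982754, minus strand): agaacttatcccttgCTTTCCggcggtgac
Rpl35a has 3 listed starts, of which the stretch with the longest pyrimidine run is shown.

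Over the wider windows of 300 bases (250 before and 50 after the start), 57 core members could be compared with 27025 genes. At least 1 of the 3 TOP-like runs (CTTTTC, then CTTTCC and last CTCTTT, of which the last and the one before it can overlap) occurred on the coding strand in 68.4% of the core members and in 33.4% of all genes. CCGGAAG occurred on either strand in 42.1% of core members and 9.93% of all genes. AAGATGGCG, which holds the core letters of a YY1 site, occurred on either strand in 5.26% and 1.64%. These are letter matches only, and windows with and without a match were found among members that rose.

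Eif3e itself checked the labels. Its level was 173, 150 and 152 CPM in the cKO libraries and 424, 401 and 392 CPM in the control libraries (CPM, counts scaled to library size with TMM factors). The groups did not overlap, and Eif3e had a log2 fold change of −1.36 in cKO cells (adjusted p = 6.71e-07, standard error 0.066). Here and below, log2 fold changes are cKO over control from edgeR's quasi-likelihood test, adjusted by Benjamini-Hochberg over all 13296 genes tested, and a call means an adjusted p under 0.05. The B cell markers Cd79a, Cd79b, Ms4a1 and Pax5 summed to 2199 to 2323 CPM in the cKO and 2433 to 2571 CPM in the control libraries, the 4 T cell markers to at most 0.35 CPM and the 3 myeloid markers to at most 0.611 CPM. The 12 feeder fibroblast markers summed to 109 to 133 CPM in cKO and 78.7 to 144 CPM in control libraries, with Lum at 0 throughout and 3 of the 9 that were tested called higher in cKO (Col5a1, Fn1 and Fbn1). Their part in the results that follow was not tested. In bulk RNA, a change in which cells were present and a change in the RNA of each cell cannot be told apart.

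Most ribosomal protein mRNAs were modestly higher in cKO than in control iGCBs. Of the 87 members tested (Rpl10l, a testis paralog, had 0 counts in every library), 64 rose, 3 fell and 20 did not pass the test. Among all genes tested, 24.1% were called higher and 24.5% lower. The median log2 fold change was 0.20 over the members (a rise of 14.7%) and −0.0040 over all genes, and 80 of the 87 members had a positive value. The changes were small: none of the rises passed 1.5-fold, where 10.4% of all genes did so upward, and 2 members passed it downward (Rpl22l1 and Rpl3l), where 10.6% of all genes did. The 3 cKO libraries lay above all 3 control libraries for 71 members and below them for 5, against 29.2% and 29.5% of all genes. The same 64 rises and 3 falls were called with DESeq2's size factors, with total counts only, with TMM factors computed without the members, and by DESeq2.

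**Figure D1:**
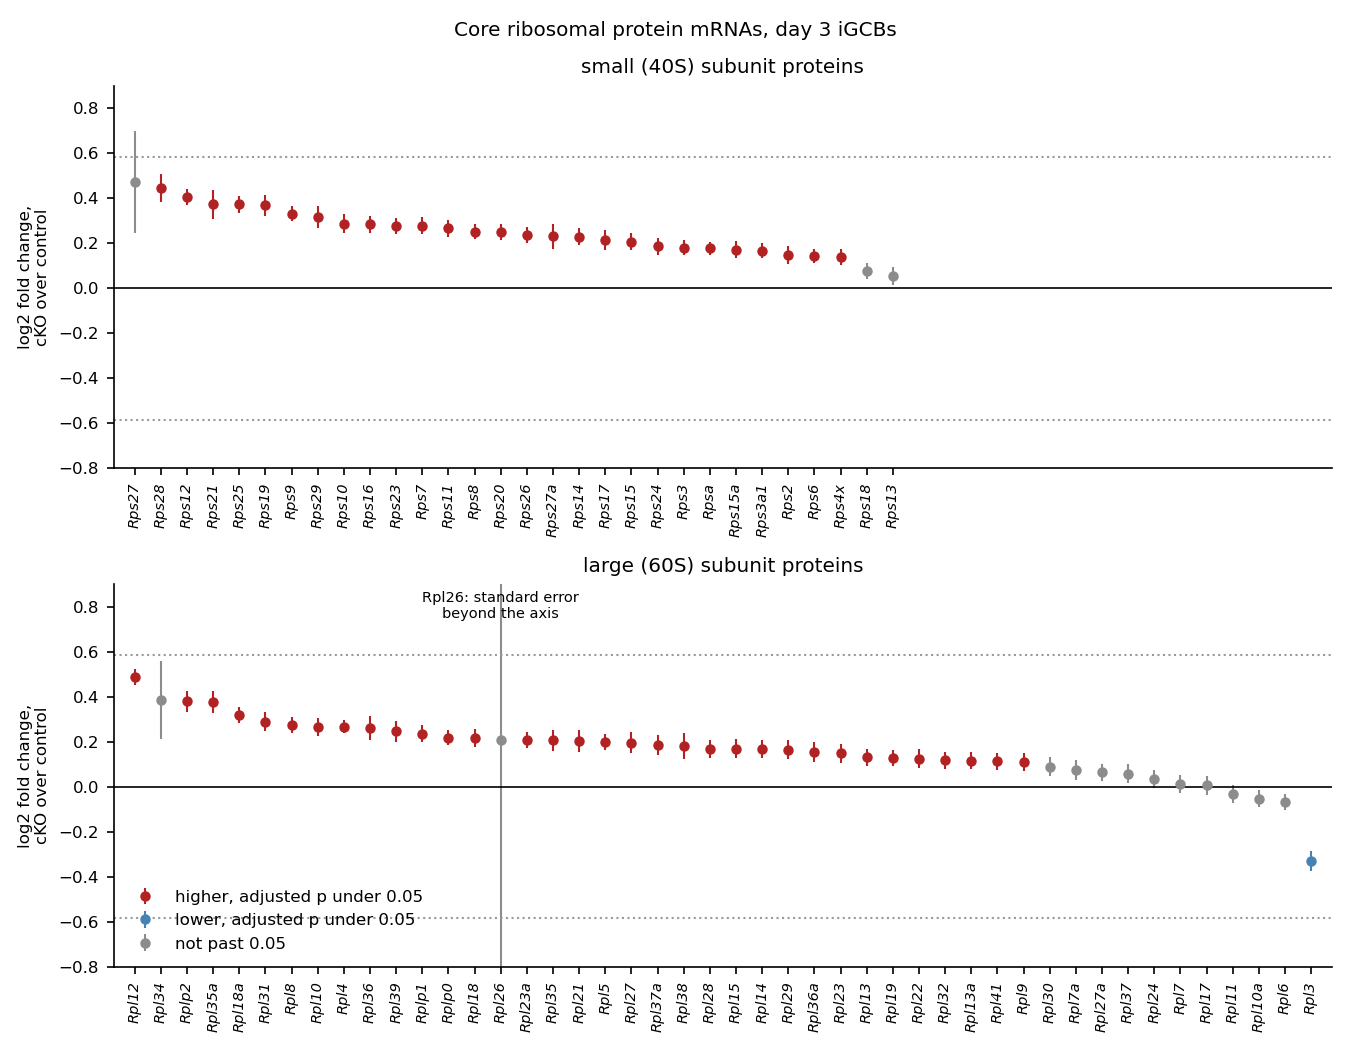
Log2 fold change (cKO over control) of 30 of the 31 core 40S genes and of the 46 core 60S genes, ordered by value within each subunit, with bars for 1 standard error and dotted lines at 1.5-fold. All 30 small-subunit points lie above 0 and 42 of 46 large-subunit points do, none beyond the upper dotted line, with Rpl3 alone called lower.

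All core 40S genes had positive values, and 42 of the 46 core 60S genes did. Of the 31 core 40S genes, 28 rose and 0 fell, with a median log2 fold change of 0.25 and values from 0.06 to 0.47. The 3 that did not pass were Rps27 (a read-sharing case described below), Rps18 and Rps13. The Rps27 row passed with the replicate number as a block (0.49, adjusted p = 0.0265) and without control library 1 (0.73, adjusted p = 0.0279). Rps18 passed only with the filter of at least 10 counts in every sample (0.09, adjusted p = 0.0429). Of the 46 core 60S genes, 33 rose, 1 fell and 12 did not pass, with a median of 0.17 and values from −0.33 to 0.49. Over all genes tested, the shares were 24.1% higher and 24.5% lower. The difference between the subunits' medians is a description and was not tested.

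**Figure D2:**
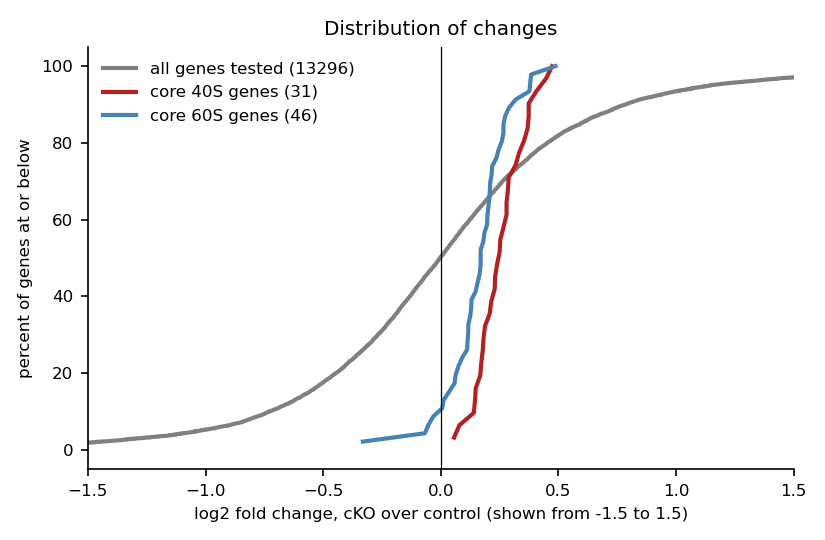
Cumulative percent of genes (y axis) at or below each log2 fold change (x axis, cKO over control) for all 13296 genes tested, the 31 core 40S genes and the 46 core 60S genes. Both ribosomal curves are steep and sit between −0.33 and 0.49, while the curve of all genes is centred near 0 and much wider.

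The share of each library's counts shows the same shift. All 88 genes together held 11.5%, 11.7% and 11.8% of counts in cKO cells, against 10.3%, 10.2% and 10.2% in control cells, or 11.7% ± 0.16 against 10.2% ± 0.06 (SD, n = 3 each). The core 40S genes held 4.98% ± 0.074 against 4.24% ± 0.0064 of counts, and the core 60S genes 6.53% ± 0.095 against 5.87% ± 0.046. The ratio of 60S to 40S counts was 1.31, 1.33 and 1.30 in cKO cells, against 1.40, 1.38 and 1.38 in control cells. The groups did not overlap in any of these measures, which get no test because they are scores over the members. With the counts of near-identical copies added to their members, a choice made after seeing the data, the ratio was 1.33 ± 0.0087 against 1.41 ± 0.0027.

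**Figure D3:**
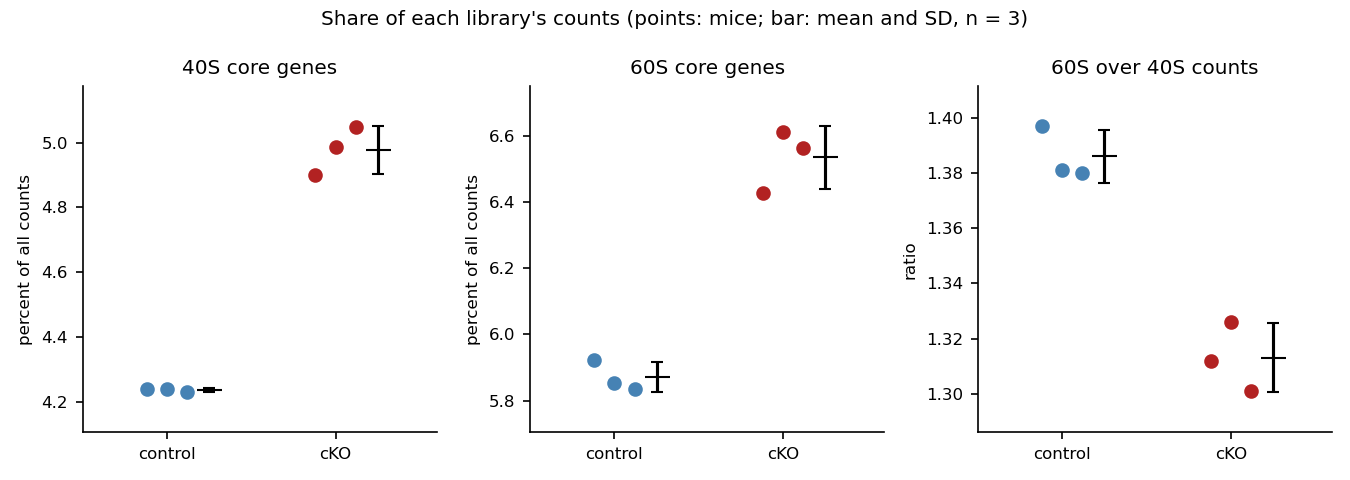
Percent of all counts held by the core 40S genes and by the core 60S genes, and the ratio of 60S to 40S counts, in each library (points are mice, the cross with bars is the mean and SD of 3). The axes do not start at 0. The cKO points lie above the control points for both shares, between 4.90% and 5.05% for the 40S genes, and below them for the ratio, between 1.30 and 1.33.

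The spread between mice was narrow. Over the 77 core members, the median coefficient of variation was 2.65% among the cKO and 1.63% among the control libraries. Set against the control mean, the median core member was higher by 0.16, 0.24 and 0.20 on the log2 scale in cKO libraries 1, 2 and 3, and 71, 74 and 71 of the 77 core members lay above it. cKO library 2 was the highest of its group for 51 core members and cKO library 1 the lowest for 54. Sex was not balanced: Xist was expressed in cKO library 2 and control libraries 1 and 2, and Y-linked genes in the others. Within each sex, 74 and 73 of the 77 core members were higher in cKO, with median differences of 0.23 in the Xist-expressing and 0.18 in the other libraries.

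The largest rise of a core member was that of Rpl12, a 60S protein near the base of the P stalk (chromosome 2, 32961712 to 32964045). Its level was 1690, 1710 and 1707 CPM in the cKO and 1216, 1215 and 1212 CPM in the control libraries. The libraries within a group were almost alike and the groups lay far apart, with a rise of 40.2% (log2 fold change 0.49, standard error 0.034, adjusted p = 3.61e-06). Rps28, a small protein near the mRNA exit of the 40S subunit, followed at 506, 560 and 601 CPM against 398, 415 and 410 CPM, a log2 fold change of 0.45 (adjusted p = 0.000249). Rps12, a 40S protein of the beak, was at 1509, 1529 and 1507 CPM against 1157, 1138 and 1133 CPM (0.41, adjusted p = 1.18e-05). In both genes every cKO library exceeded every control library.

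The other large rises spanned both subunits. Rplp2, an acidic protein of the P stalk, was at 1271, 1372 and 1383 CPM against 994, 1057 and 1044 CPM (log2 fold change 0.38, adjusted p = 9.64e-05). Rpl35a, a 60S protein mutated in Diamond-Blackfan anemia, was at 392, 419 and 410 CPM against 311, 309 and 319 CPM (0.38, adjusted p = 0.000122). Rps25, a 40S head protein used by several viral internal ribosome entry sites, was at 1217, 1226 and 1213 CPM against 942, 916 and 963 CPM (0.37, adjusted p = 3.39e-05). In none of these genes did the groups overlap, and each kept its call in every alternative tried.

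**Figure D4:**
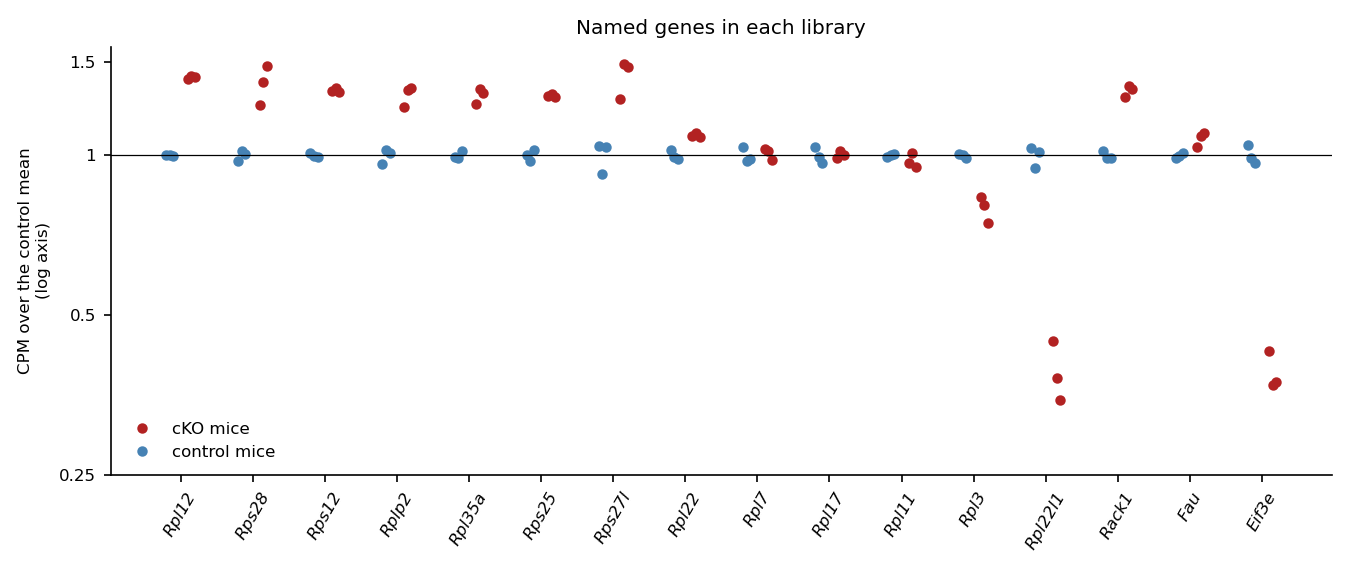
CPM of each library divided by the control mean of the same gene (log axis) for members with the largest and smallest changes, 2 ribosomal proteins outside the name rule and Eif3e, with cKO mice in red and control mice in blue. Rpl12 to Rps27l lie above 1 in every cKO library, Rpl7, Rpl17 and Rpl11 straddle 1, and Rpl3, Rpl22l1 and Eif3e lie well below it.

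Some 60S genes did not follow. Rpl17, which lines the peptide exit tunnel, Rpl7 and Rpl11 were nearest to 0, at log2 fold changes of 0.01, 0.01 and −0.03. Rpl17 was at 1266, 1307 and 1283 CPM in cKO against 1329, 1274 and 1237 CPM in control libraries, with the groups interleaved. Rpl6 and Rpl10a had log2 fold changes of −0.07 and −0.05 and did not pass (adjusted p = 0.15 and 0.269), although their groups did not overlap.

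Rpl3 was the 1 core gene that fell. Rpl3 reaches toward the peptidyl transferase centre and is among the earliest proteins to join the large subunit. Its level was 2336, 2252 and 2082 CPM in the cKO and 2820, 2807 and 2764 CPM in the control libraries. Every cKO library was below every control library, a decrease of 20.5% (log2 fold change −0.33, standard error 0.043, adjusted p = 0.000148), and the call held in every alternative with log2 fold changes from −0.37 to −0.29.

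The largest change of any abundant member was the fall of Rpl22l1 (chromosome 3, 28805508 to 28807424), the paralog of Rpl22 that can take its place in the 60S subunit. Rpl22l1 was at 85.0, 72.5 and 65.9 CPM in the cKO and 197, 180 and 193 CPM in the control libraries. The groups were far apart, with the control level 2.55-fold the cKO level (log2 fold change −1.35, standard error 0.087, adjusted p = 2.47e-06), and it was the only member still called when the null hypothesis was a change of up to 1.5-fold (glmTreat). Rpl22 moved the other way, from 592 ± 13.0 to 645 ± 6.34 CPM (SD, n = 3 each; log2 fold change 0.12, adjusted p = 0.0341), a call lost with the replicate block (adjusted p = 0.0659) and without any 1 of the libraries other than control library 1 (adjusted p up to 0.0884). A pseudogene-like row that shares 70.5% of the Rpl22l1 coding stretches, Gm15421, was at 0.763 ± 0.126 against 1.55 ± 0.115 CPM, and Rpl22l1 with it added had a log2 fold change of −1.35.

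Of the 10 paralogs and copies tested, Rpl22l1 among them, 3 rose, 2 fell and 5 did not pass, with a median log2 fold change of 0.08. Among all genes tested 24.1% rose and 24.5% fell, so these counts are near the background. Rps27l, a paralog of Rps27 induced by p53, had the largest rise of all members called, from 71.1, 62.8 and 70.9 CPM in control to 87.1, 102 and 100 CPM in cKO libraries (0.50, adjusted p = 0.000393). Rpl7l1, a paralog of Rpl7 with a role in ribosome assembly, rose from 83.3 ± 2.43 to 106 ± 4.99 CPM (SD, n = 3 each; 0.34, adjusted p = 0.000651), and Rps27rt rose by 0.35. Rpl3l, the paralog of Rpl3 used in striated muscle, fell but was barely detected, with 4, 9 and 6 counts in cKO and 38, 22 and 28 counts in control libraries (−2.26, standard error 0.585, adjusted p = 0.00908).

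The remaining paralogs did not pass the test. Rpl36al, a retained copy of Rpl36a, was at 233 ± 2.37 against 216 ± 3.56 CPM (0.11, adjusted p = 0.0684). Rpl37rt was at 74.9 ± 1.56 against 72.1 ± 4.80 CPM. Rps4l, Rpl32l and Rpl39l stayed below 7 CPM in every library, with log2 fold changes of −0.47, 0.26 and 0.03 and standard errors of 0.33, 0.324 and 0.566. Rps4l passed the test only without control library 2 (−0.76, adjusted p = 0.0498).

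The members were also grouped by role, beside 79.2% of the 77 core members and 24.1% of all genes tested called higher. Whether any role group differed from the other core members was not tested. The P stalk proteins Rplp0, Rplp1 and Rplp2, which recruit the elongation factors, all rose, by 0.22, 0.24 and 0.38. Of 7 proteins that join late in the cytoplasm, 6 rose, among them Rpl10 (0.27), Rps10 (0.29) and Rps26 (0.24), while Rpl24 had a log2 fold change of 0.04 (adjusted p = 0.497). Of 6 40S proteins near the eIF3 docking site, 4 rose, among them Rps28, Rps26 and Rps3a1 (0.17). Rps13 was at 0.06 (adjusted p = 0.28) and Rps27 did not pass. All 4 X-linked members rose, Rps4x by 0.14, Rpl36a by 0.16, Rpl39 by 0.25 and Rpl10 by 0.27. The call for Rpl36a was lost without control library 2 (adjusted p = 0.0504). Rps6, the protein phosphorylated by S6 kinases, rose by 0.15 (adjusted p = 0.00354).

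Rpl5 and Rpl11 form the 5S ribonucleoprotein with 5S rRNA, which can bind Mdm2 and stabilise p53 when it is not built into ribosomes. Rpl5 was at 2316, 2418 and 2364 CPM in the cKO and 2107, 2061 and 2020 CPM in the control libraries, with no overlap (log2 fold change 0.20, adjusted p = 0.000951). Rpl11 was at 1336, 1395 and 1311 CPM against 1367, 1380 and 1386 CPM, with overlapping groups (−0.03, adjusted p = 0.521). Among the genes downstream, Trp53 rose from 167 ± 5.40 to 229 ± 8.56 CPM (0.45, adjusted p = 5.58e-05), Cdkn1a rose from 25.7 ± 0.372 to 37.1 ± 9.63 CPM (0.53, adjusted p = 0.0154; SD, n = 3 each), and Mdm2 had a log2 fold change of −0.02 (adjusted p = 0.81). Without cKO library 3 the log2 fold change of Cdkn1a was 0.30 (adjusted p = 0.0399).

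Sequence shared with other genes limits most members. Counts come from alignment, so a read that fits a member and a processed copy equally well cannot be given to either with certainty. Coding sequences were compared in stretches of 75 bases. Of the 85 members that could be compared, 65 shared over 50% of their stretches with all other annotated genes pooled, and 4 shared none. Among members described above, Rpl12, Rps28, Rps12, Rpl17 and Rpl11 each shared 100%, and Rpl3 shared 93.4%. The 15 core members that shared at most 50% were all called higher, with a median log2 fold change of 0.25. Of the 62 that shared more, 46 were called higher, with a median of 0.18. Beside these counts, 24.1% of all genes tested were called higher, and the difference between these sets was not tested.

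Rpl26 shows the limit most plainly. Its row held 9.81, 525 and 11.3 CPM in the cKO and 461, 5.52 and 5.42 CPM in the control libraries, 1 library of each group being far above the rest. The row Gm15772, which shares 58.8% of the Rpl26 stretches, held 1075, 595 and 1049 CPM against 520, 953 and 960 CPM, low where Rpl26 was high. Their sum was even within groups, 1088 ± 30.4 against 968 ± 11.8 CPM (SD, n = 3 each), and as 1 gene it had a log2 fold change of 0.17 (adjusted p = 0.00793), while the Rpl26 row alone had 0.21 with a standard error of 1.65 (adjusted p = 0.929). Rps27 is a like case. Its row held 4.69 to 10.9 CPM while Rps27rt, whose coding stretches are all found in Rps27, held 569 to 768 CPM, and the sum rose by 0.35 (adjusted p = 0.000214).

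**Figure D5:**
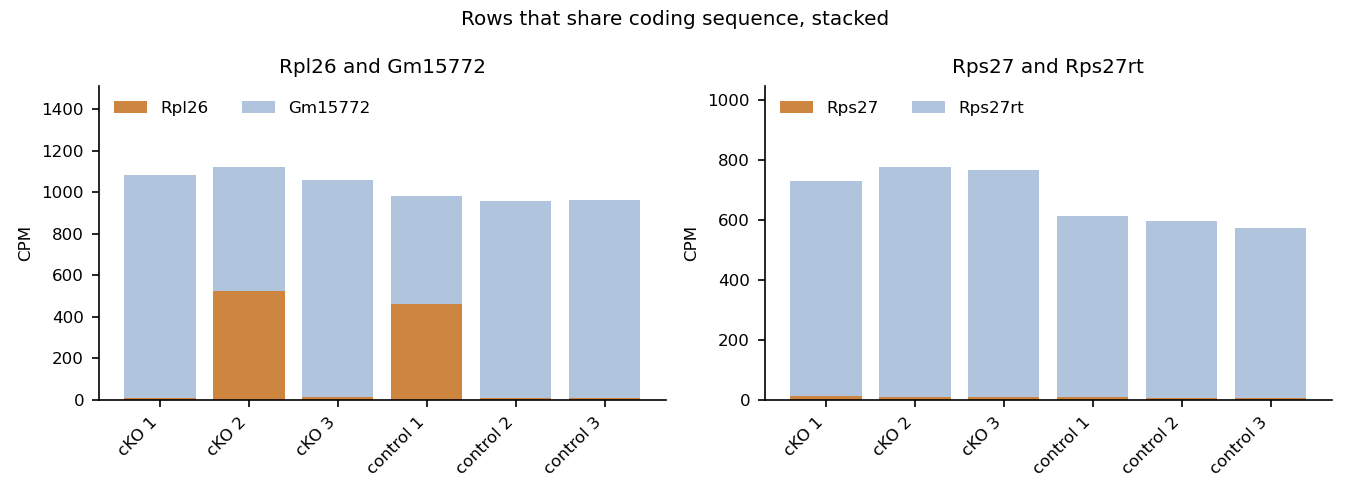
CPM in each library of Rpl26 and Gm15772 (left) and of Rps27 and Rps27rt (right), stacked, with CPM on the y axis from 0. The Rpl26 row is large in cKO library 2 and control library 1 only, while the stacked totals of both pairs are higher in all 3 cKO libraries.

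Such sums changed other calls. Rpl34 with Rpl34-ps1 rose by 0.20 (adjusted p = 0.00403), where its own row did not pass (0.38, adjusted p = 0.0946) except with the replicate block (0.43, adjusted p = 0.0294) or without control library 1 (0.67, adjusted p = 0.000911). The sums with rows not named -ps were chosen after seeing the data. Rpl30 with Gm12191 rose by 0.24 (adjusted p = 0.00122), where its own row gave 0.09 (adjusted p = 0.111). The Gm12191 row alone went from 68.0 ± 22.8 CPM in control to 164 ± 21.9 CPM in cKO libraries (1.27, adjusted p = 0.000504). Rpl37 with Rpl37rt did not pass (0.06, adjusted p = 0.309). With 9 such sums, 66 of 85 members were called higher and 3 lower.

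The transcript table asks whether a member's mRNA changed its make-up. Of the 14 members with at least 2 transcripts passing the filter, 0 were called by edgeR's diffSpliceDGE (Simes p, adjusted over 2990 genes, of which 1.37% were called). At an unadjusted p under 0.05 there were 3, Rpl31, Rps15 and Rpl29, where 6.59% of the 2990 genes passed. The gene-level F test called 1, Rps15, and 3.28% of all genes. The minor Rpl31 transcript NM_001252218 made up 19.8%, 23.6% and 16.7% of the gene's counts in the cKO and 11.0%, 12.2% and 11.7% in the control libraries, without overlap (adjusted p = 0.351). NM_001310726 of Rps15 made up 9.55%, 8.40% and 9.04% against 12.7%, 13.1% and 13.1%, also without overlap (adjusted p = 0.427).

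Some ribosomal proteins fall outside the name rule. Rack1, a signalling scaffold on the head of the 40S subunit, was at 3022, 3161 and 3128 CPM in the cKO and 2392, 2317 and 2322 CPM in the control libraries (log2 fold change 0.41, adjusted p = 8.49e-06). Fau, which encodes a ubiquitin-like protein fused to the 40S protein eS30, was at 1220 ± 37.9 against 1134 ± 10.7 CPM (0.11, adjusted p = 0.0496), and its call was lost in 9 of 16 alternatives.

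Of 17 other mRNAs known to carry a TOP motif, 7 rose, 3 fell and 7 did not pass, where 24.1% of all genes tested rose and 24.5% fell. Their median log2 fold change was 0.06, against 0.20 over the ribosomal proteins. The rises included Ipo5, an importin for ribosomal proteins (0.59, adjusted p = 6.02e-05), Npm1, a nucleolar chaperone (0.54, adjusted p = 6.64e-05) and Eef1b2, an exchange factor of eEF1A (0.52, adjusted p = 5.27e-06). The falls were of the initiation factor genes Eif4b (−0.38, adjusted p = 0.000262), Eif3f (−0.17, adjusted p = 0.00756) and Eif3h (−0.12, adjusted p = 0.0455), the last a call lost in 10 of 16 alternatives, with an adjusted p of up to 0.12. The abundant elongation factor mRNAs Eef1a1 and Eef2 had log2 fold changes of 0.06 and −0.02 and did not pass (adjusted p = 0.0575 and 0.605), although Eef1a1 passed in 5 of 16 alternatives, among them DESeq2's size factors (adjusted p = 0.0472) and total counts only (adjusted p = 0.031).

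Of 9 genes that escort or assemble ribosomal proteins, 7 rose and 0 fell (24.1% and 24.5% of all genes), with a median log2 fold change of 0.36, against −0.0040 over all genes. Heatr3, which carries the 5S ribonucleoprotein proteins to the nucleus, went from 36.1, 31.6 and 36.5 CPM in control to 92.0, 101 and 87.4 CPM in cKO libraries (log2 fold change 1.43, standard error 0.080, adjusted p = 1.43e-06). Grwd1, the chaperone of Rpl3, rose by 0.84 (adjusted p = 0.000308), and Nmd3, the export adaptor of the 60S subunit, by 0.75 (adjusted p = 1.36e-05). Ltv1, which helps Rps3 into the 40S subunit, rose by 0.54 (adjusted p = 8.1e-05), while Pdcd2, the chaperone of Rps2, was at 0.08 (adjusted p = 0.519).

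Host genes of small nucleolar RNAs, several of them TOP transcripts without a protein product, were also listed. Of 7, 4 rose and 1 fell, beside 24.1% and 24.5% of all genes. Gas5 went from 151 ± 4.45 to 285 ± 10.2 CPM (SD, n = 3 each; log2 fold change 0.91, adjusted p = 1.15e-06) and Snhg3 from 7.61 ± 0.686 to 18.2 ± 2.48 CPM (1.26, adjusted p = 3.8e-05). Snhg8 fell by 0.33 on the log2 scale (adjusted p = 0.0261), a call lost without cKO library 1 (adjusted p = 0.0887) or control library 3 (adjusted p = 0.102).

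Among 8 regulators of TOP mRNAs and Rps6, 5 rose and 2 fell, the falls being at the background share (24.1% of all genes rose and 24.5% fell). Larp4b (1.04, adjusted p = 2.49e-06), Larp1b (0.93, adjusted p = 1.29e-05) and Larp1, the repressor and stabiliser of TOP mRNAs (0.32, adjusted p = 0.000722), rose, and the kinase gene Rps6ka1 fell (−0.77, adjusted p = 3.89e-06). The other fall, of the kinase gene Rps6kb2 (−0.24, adjusted p = 0.0424), was lost in 8 of 16 alternatives, among them DESeq2 (adjusted p = 0.0664), the replicate block (adjusted p = 0.0695) and each library left out except cKO library 1. The rise of Rps6ka3 (0.32, adjusted p = 0.017) was lost without cKO library 1 (adjusted p = 0.077) or control library 2 (adjusted p = 0.0598). Of 4 factors that bind ribosomal protein promoters, Gabpb1 (0.59, adjusted p = 0.000222) and Yy1 (0.44, adjusted p = 7.47e-05) rose, Sp1 fell (−0.54, adjusted p = 6.12e-05) and Gabpa was at 0.02 (adjusted p = 0.845).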

How the data were processed

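The authors used HISAT2 for alignment to mm10 and StringTie for quantification, and the deposited tables hold their estimated counts, whole numbers for each gene and each RefSeq transcript in 6 libraries. Tool versions, the annotation release and the strand setting are not given in the sources used here. The labels' general protocol describes a longer culture than the titles.

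The tests here used edgeR 4.0.16 under R 4.3.3: filterByExpr (minimum count 10), TMM, the quasi-likelihood test without covariates, and Benjamini-Hochberg adjustment over all genes tested. DESeq2 1.42.0, the study's tool, was an alternative. Transcript use was tested with diffSpliceDGE, and 34669 of 36026 transcripts matched a gene. The scripts were checked on simulated data with known changes. With 3 mice per group, an exact permutation test cannot give p below 0.1.

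Some genes of the lists are not reported here. The members and lists were chosen with earlier results of these data known. Genes named are the members past 1.5-fold, the 6 core members with the largest called changes in each direction (1 was lower) and the 3 nearest to 0, all paralogs, the short lists in full, and the largest called changes of other lists. Rpl6, Rpl10a, Rps18, Rps6, Rpl22, Larp1, Eef1a1, Eef2, Pdcd2, Rps21, the transcript examples and the genes with near-copies were named after their values were seen.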

Additional observations from a re-analysis of the deposited data

How the results depend on the processing

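Of the results with a test, the 64 members higher stayed within 56 to 62 with each library left out, and the 3 lower within 3 to 4. The median log2 fold change was 0.172 to 0.222 with each library left out, against a spread between libraries of 0.0249. It was lowest without cKO library 2. The share of counts differed by 1.37 to 1.51 percentage points, against 1.42 with all libraries. The count past 1.5-fold upward was 0 to 3 with each library left out. The 3, without control library 1, were Rpl26, Rpl34 and Rps27, which share reads with copies. The count past 1.5-fold downward was 2 to 3, the third being Rps4l without control library 2. It was 1 with at least 10 counts in every sample, which removed Rpl3l, and 1 in the test that the change exceeds 1.5-fold. Transcript use changed in 0 to 1 members with each library left out (Rpl35a without control library 1) and in 1 by the gene-level F test.

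Directions turned with a library left out for 7 named genes that were not called: Rpl17 (−0.017 to 0.034), Rpl7 (−0.013 to 0.040), Rpl39l (−0.24 to 0.74), Gabpa (−0.030 to 0.065), Mdm2 (−0.051 to 0.029), Eef2 (−0.028 to 0.0022) and Rpl26 (−3.90 to 5.05). With sex as a term Mdm2 was at 0.0056. Whether the replicate numbers in the labels pair the libraries could not be decided from 3 libraries per group. The deviations of same-numbered libraries correlated at 0.0011, 0.114 and 0.216 across genes. Differently numbered libraries correlated at −0.291 to 0.219, the highest for cKO library 2 and control library 1, which both expressed Xist. With the replicate block, 64 members were higher and 3 lower, of which 62 and 3 were the same as without it, and the median was 0.198, 0 members were past 1.5-fold upward and 2 downward, and 0 changed transcript use. The table holds 0 immunoglobulin rows, so leaving those out could not be run. Depth limits Rpl3l, Rpl32l, Rpl39l and Rps4l.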
